A study of Homo sapiens with 12 samples.

Results

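Mitochondrial ribosomal protein genes were followed across 12 RNA sequencing libraries of K-562, an established human erythroleukemic cell line. Members were the protein-coding genes with a symbol of the form MRPL or MRPS, a number and at most 1 further letter, and 3 or more of the 12 libraries at an FPKM of 1 or higher. FPKM is fragments mapped to a gene scaled by transcript length and library size, as the authors deposited it. The rule found 78 genes, 49 named MRPL and 29 named MRPS, among 13393 genes that passed the same minimum and 60658 rows in all. All 78 reached an FPKM of at least 1 in every library, so none of them passed through 1 group alone.

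Mitochondria keep a small genome whose messenger RNAs encode core subunits of the respiratory chain, and a ribosome of their own translates them at the inner membrane. That ribosome has a small subunit, which reads the message, and a large subunit, which joins the amino acids and lets the chain out through a tunnel. All its proteins are encoded in the nucleus, translated in the cytosol and imported, so their messenger RNAs are part of the nuclear program that sets the capacity for respiration. Some are homologs of bacterial ribosomal proteins and others are found only in mitochondria.

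The groups had 3 libraries each, and all cells were stable lines under G418 selection, with RNA taken 24 hours after transfection with siRNA. Control cells (siRNA_Control) carried the 3xTY1 tag alone and received the siGENOME non-targeting siRNA. Knockdown cells (MYB_KnockDown) carried the same tag and received si2992 against MYB, a transcription factor of blood progenitors and leukemia. The 2 rescue groups also received si2992, and stably expressed 3xTY-hcM (MYB-WT_Rescue) or 3xTY-D152V (D152V_Rescue), a form of MYB with a substitution. Whether each line was a clone or a pool is not stated in the labels, so an effect of a rescue construct and a difference between stable lines cannot be told apart. The comparisons ask which genes respond to loss of MYB and which of these return with either form.

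MYB (ENSG00000118513) stood at 124, 132 and 104 FPKM in the control libraries and at 26.1, 32.9 and 31.5 in the knockdown libraries. It stood at 132, 125 and 115 with wild-type MYB and at 86.6, 86.2 and 100 with D152V. The knockdown values lay below every other value, so the targeted gene was as labelled in all 3 knockdown libraries. The fitted log2 difference between knockdown and control was -1.96 (SE 0.13, limma adjusted p = 3.03e-05), and between D152V and wild-type rescue -0.44 (SE 0.13, limma adjusted p = 0.0494).

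MYB_KnockDown replicate 1 stood apart from all other libraries. Its correlation with the other knockdown libraries over log2 values was 0.929 and 0.930, against 0.983 to 0.991 for all other pairs within a group. Its FPKM total was 1215578, against 672616 to 798362 in the other 11. Genes of the cytosolic ribosome held 23.6% of that total, against 10.3% to 17.1% elsewhere. The mitochondrial genes MT-CO3, MT-ATP6 and MT-ATP8 were listed at 0 in all 9 libraries of the other groups and at 5132 FPKM or more in all 3 knockdown libraries, so FPKM estimates of the mitochondrial genome differed in kind between these groups. Leaving out replicate 1 does not remove that difference, which separates all 3 knockdown libraries from the rest. Whether the values of all groups were made with the same settings is not known, and its part in the comparisons with the knockdown was not tested. Because replicate 1 stands apart, results are given over all 12 libraries and over the 11 without it. The erythroid transcription factor genes GATA1 (80.8 to 138 FPKM) and KLF1 (34.8 to 74.8) were present in all libraries. The 11 markers of other cell types with a row summed to 79.8 to 87.5 FPKM in the control, 72.8 to 141 in the knockdown, 69.0 to 89.7 in the wild-type and 38.9 to 47.0 in the D152V libraries. Most of that was EPCAM, an epithelial adhesion gene, and LYZ, the lysozyme gene, while KRT5 was at 0 in all control and D152V libraries and MPO in all rescue libraries. The 8 erythroid markers, all present, summed to 1318 to 2817 FPKM in the control, 1718 to 5866 in the knockdown, 916 to 1968 in the wild-type and 2168 to 3727 in the D152V libraries. Single markers differed more. Against the control over 12 libraries, their log2 differences ran from -3.94 to 0.66 with wild-type MYB and from -1.89 to 1.84 with D152V. Of the 8, 2 and 1 fell at a limma adjusted p under 0.05, against 4.58% and 4.94% of all tested genes. In bulk RNA, fewer cells of a type and less RNA per cell cannot be told apart, and p-values here measure the spread between libraries described as separate experiments.

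A sequence that the choice of genes did not use recurred around the start sites of the members. RefSeq windows on GRCh38.p14, from 250 bases before to 50 bases after the start site, were found for 69 of the 78 genes. The letters AAGATGGC, the core bound by the transcription factor YY1, occurred on either strand in 20 of the 69 windows (29.0%). They occurred in 2.9% of all 35116 windows and in 5.9% of those of 9062 tested protein-coding genes. The share was 11.1% among 63 cytosolic ribosomal protein genes and 16.9% among 65 genes of respiratory chain subunits. There were 21 sites, of which 17 had these letters on the strand of the gene and 15 began after the start site. The letters hold an ATG, and whether the sites overlap the start of translation was not tested. The 8 sites below are 30 bases long, in the direction of the gene and with the motif in capitals, and belong to genes described further on:
MRPS30 (chr5:44808949-44808978, plus strand): aatcgcgggcaAAGATGGCggcggccaggt
MRPL50 (chr9:101398577-101398606, minus strand): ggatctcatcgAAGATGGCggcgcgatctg
MRPL45 (chr17:38297170-38297199, plus strand): tttgcgggaacAAGATGGCagcccccatac
MRPL46 (chr15:88467362-88467391, minus strand): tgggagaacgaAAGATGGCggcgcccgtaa
MRPL51 (chr12:6493223-6493252, minus strand): gggtaaggcccAAGATGGCtgtcttcgcct
MRPL20 (chr1:1407260-1407289, minus strand): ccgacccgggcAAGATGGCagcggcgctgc
MRPS18B (chr6:30617852-30617881, plus strand): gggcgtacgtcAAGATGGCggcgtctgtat
MRPL42 (chr12:93467511-93467540, plus strand): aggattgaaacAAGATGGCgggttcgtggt
In MRPS30, MRPL50, MRPL45 and MRPL46 the motif began 14, 24, 14 and 9 bases from the start site. In MRPL51, MRPL20, MRPS18B and MRPL42 it began 22, 16, 24 and 9 bases from it. Over 11 libraries MRPS30 and MRPL50 fell and MRPL51 and MRPL20 rose after knockdown, so genes of both directions carried it. No binding was measured here, so the letters alone are described.

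Other motifs were less distinct from the background. The ETS core ACTTCCGG was in 15.9% of the 69 windows, against 9.9% of the windows of tested protein-coding genes, and CGCATGCG, the core of NRF1, a regulator of nuclear respiratory genes, was in 4.3% against 4.1%. The MYB core AACGG was in 30.4% against 27.3%, and TAACNG, another form that can overlap it, was in 14.5% against 17.4%. All motifs were searched on both strands. The E-box CACGTG was in 8.7% against 10.5%. The 250 bases before the start site of MRPL27, which was among the largest rises after knockdown, held 2 ETS cores on the opposite strand, shown in capitals (chr17:50373185-50373434, minus strand):
MRPL27: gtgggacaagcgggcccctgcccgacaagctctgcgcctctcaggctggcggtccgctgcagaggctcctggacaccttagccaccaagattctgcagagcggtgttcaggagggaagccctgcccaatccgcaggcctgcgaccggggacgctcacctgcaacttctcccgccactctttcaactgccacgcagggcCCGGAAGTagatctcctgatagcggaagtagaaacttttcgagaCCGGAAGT
A start site on the opposite strand, pointing away, lay within 1000 bases of 26 of the 69 genes (37.7%), against 17.9% of all windows. Unlike the members, all windows include genes that were not tested or not protein-coding. The share among tested protein-coding genes was not computed.

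The range of expression levels within the set was wide. The mean FPKM over the 12 libraries had a median of 71.1 and ran from 6.07 for MRPL23 to 204 for MRPL20. FPKM is scaled by length, but the knockdown difference was also related to transcript length, as given further on. The order of these levels is therefore approximate. The highest were MRPL20, a homolog of bacterial bL20 (204), MRPL37 and MRPL42, both found only in mitochondria (182 and 141), and MRPL2, the uL2 homolog near the peptidyl transferase center (135). These means include MYB_KnockDown replicate 1, and the order differed in the control libraries alone. There MRPL37 had a mean of 193 and MRPL20 of 171, and MRPL3 had 142 and MRPL2 133. The lowest were MRPL23, the uL23 homolog at the tunnel exit (6.07), MRPS26 (9.16), MRPL57 (12.1) and MRPS31 (14.1), of which the last 3 are found only in mitochondria. The 51 proteins of the large subunit, which include MRPS18A and MRPS30 despite their names, had a median of 69.3, and the 26 of the small subunit had 80.6. The 46 homologs of bacterial proteins had a median of 73.7 and the 31 proteins found only in mitochondria 60.7. MRPS36 (37.1), although named as a ribosomal protein, has been assigned to the oxoglutarate dehydrogenase complex.

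Within groups the members were tightly reproduced, with 1 exception. The median coefficient of variation of a member was 5.84% in the control libraries, 9.30% with wild-type rescue and 6.79% with D152V rescue. It was 45.8% in the knockdown libraries and 5.15% between their replicates 2 and 3. In MYB_KnockDown replicate 1, 69 of the 78 members lay above every control library and 4 below. Its ratio to the mean of replicates 2 and 3 had a median of 2.08, from 0.426 for MRPL10 to 6.04 for MRPL23, and exceeded 2 for 53.8% of members, against 16.5% of 13353 tested genes, whose median ratio was 1.000. The summed FPKM of the members was 12405 in that library (1.02% of its total) and 5054 to 5933 in the other 11 (0.690% to 0.816%). In replicates 2 and 3, 41 and 51 members lay above every control library and 20 and 18 below. For replicates 1, 2 and 3 the share of all tested genes outside the control range was not computed, so these counts are a description only. The median log2 value minus the control mean was 1.08, 0.11 and 0.17 for the members in replicates 1, 2 and 3. For all tested genes it was -0.02, -0.05 and -0.03.

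**Figure D1:**
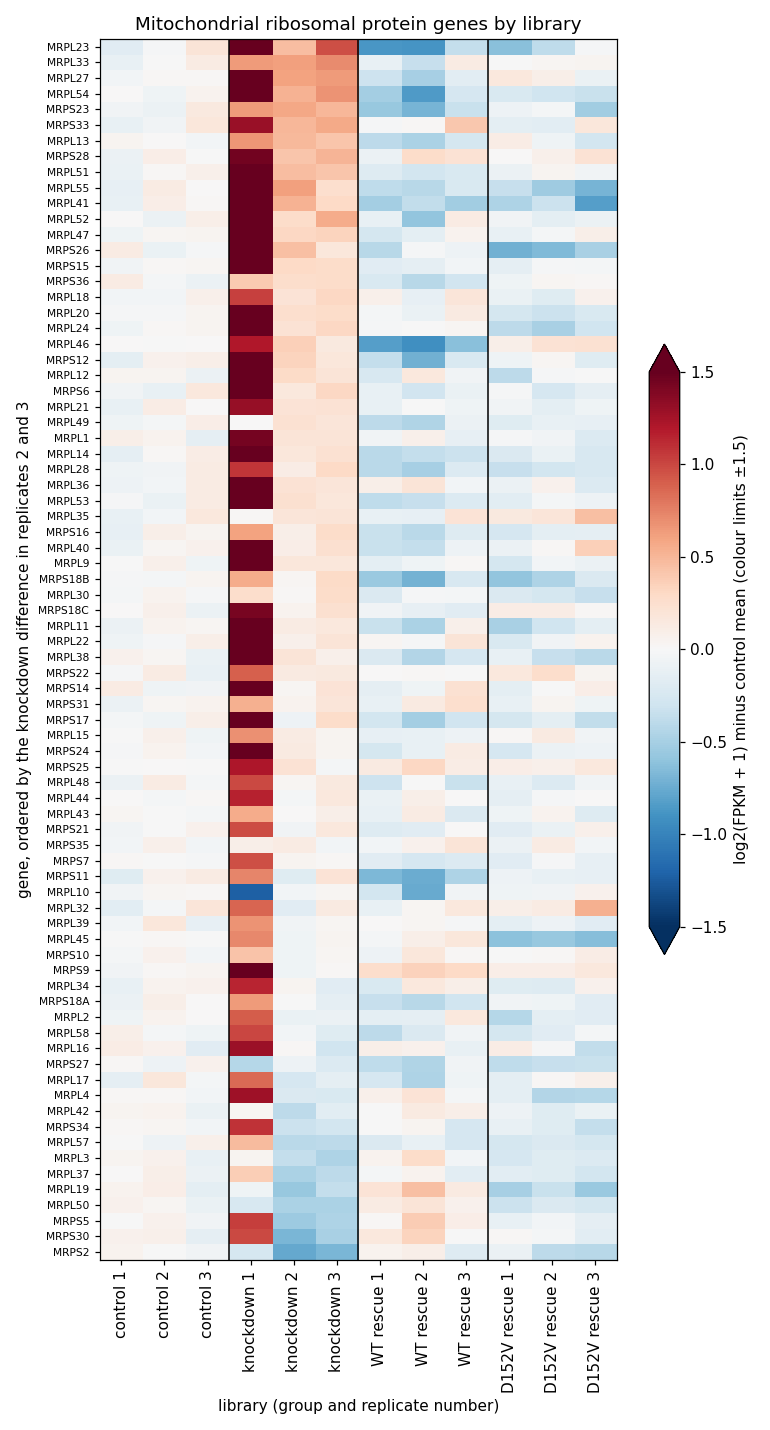
Each row is 1 of the 78 genes and each column 1 library, and color gives log2(FPKM + 1) minus the mean of the control libraries, with colors saturated at ±1.5. The column of MYB_KnockDown replicate 1 lies above every control library for 69 genes. Rows are ordered by the knockdown difference in replicates 2 and 3, so those columns are high at the top and low at the bottom by construction.

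After knockdown, a few members rose and fewer fell. Over 12 libraries 7 of 78 rose and 2 fell at a limma adjusted p under 0.05, against 3.94% and 7.38% of all tested genes (9.0% and 2.6% of members). Over 11 libraries 15 rose and 9 fell, against 7.26% and 12.9% of all tested genes (19.2% and 11.5% of members). The median log2 difference of the members was 0.45 over 12 libraries and 0.14 over 11, where the median of all tested genes was -0.03 and -0.04. All 7 genes that rose over 12 libraries were among the 15 over 11. With median-ratio scaling 8 rose and 0 fell, and with quantile normalization 11 and 5, over 12 libraries. The fit on the 6 libraries compared called 0 in either direction. Without control replicate 1, 2 or 3 the count of rises was 0, 0 and 1 and the count of falls 0, and without MYB_KnockDown replicate 2 or 3 it was 17 and 14 rises with 0 falls.

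MRPL33, a small protein homologous to bacterial bL33 (ENSG00000243147, GRCh38 chromosome 2, 27771719 to 27779733), had control values of 103, 111 and 122 FPKM and knockdown values of 174, 171 and 184. All 3 knockdown libraries, replicate 1 included, lay together and above every control. The log2 difference was 0.65 (SE 0.13, adjusted p = 0.0142), called in 21 of the 26 settings run. With wild-type MYB the values were 103, 87.7 and 122 and with D152V 111, 114 and 115, both overlapping the control.

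MRPL27, the homolog of bL27 near the peptidyl transferase center (ENSG00000108826, GRCh38 chromosome 17, 50367867 to 50373184), rose from 43.3, 45.2 and 45.0 to 142, 68.2 and 69.7 FPKM. Replicates 2 and 3 were alike and above every control, and replicate 1 was higher still. MRPL54, found only in mitochondria (ENSG00000183617, GRCh38 chromosome 19, 3762682 to 3767565), rose from 26.5, 25.0 and 27.4 to 92.2, 38.2 and 42.4 FPKM. Their log2 differences were 0.97 (SE 0.23) and 0.99 (SE 0.27) over 12 libraries, and 0.62 (SE 0.10) and 0.60 (SE 0.14) over 11. In the rescues both genes lay below every knockdown library. They also lay below every control library, except MRPL27 with D152V, whose values fell on both sides of the control range. MRPL27 stood at 35.6, 31.3 and 39.7 with wild-type MYB and 49.8, 47.5 and 41.6 with D152V. MRPL54 stood at 18.2, 14.1 and 21.9 and 22.2, 21.2 and 20.6.

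MRPS23, a small subunit protein found only in mitochondria (ENSG00000181610, GRCh38 chromosome 17, 57834781 to 57850044), gave 48.4, 47.4 and 55.9 FPKM in the control and 78.9, 76.0 and 71.9 in the knockdown libraries (log2 difference 0.57, SE 0.15). MRPL13, the uL13 homolog (ENSG00000172172, GRCh38 chromosome 8, 120395437 to 120445150), gave 58.5, 56.9 and 55.3 and 90.5, 80.4 and 76.4 (0.52, SE 0.12). For these 2 genes, as for MRPL33, replicate 1 did not stand apart. MRPS28, the homolog of bS1, rose from 38.8, 44.3 and 41.2 to 115, 55.4 and 59.2 FPKM, and MRPS33, found only in mitochondria, rose from 50.6, 52.9 and 61.8 to 136, 78.1 and 82.0; the log2 difference was 0.79 for both (SE 0.23 and 0.21). The 7 rises were thus 4 genes of the large and 3 of the small subunit.

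Over 11 libraries 8 further members rose by 0.26 to 0.72 on the log2 scale. They included MRPL23 (0.72), MRPL51 (0.44), MRPL55 (0.44), the bL31 homolog, MRPL47 (0.32), the uL29 homolog, and MRPS15 (0.29), the uS15 homolog. MRPL20 and MRPL24, the uL24 homolog at the tunnel, gave 0.26 each, and MRPS36 gave 0.28. MRPL20, the member with the highest mean over 12 libraries, stood at 168, 168 and 176 FPKM in the control libraries. In the knockdown libraries it stood at 587, 203 and 206. Its replicates 2 and 3 lay above every control by less than the gap to replicate 1. MRPL23, the least abundant, stood at 2.87, 3.28 and 3.96 and 37.7, 5.0 and 7.50.

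**Figure D2:**
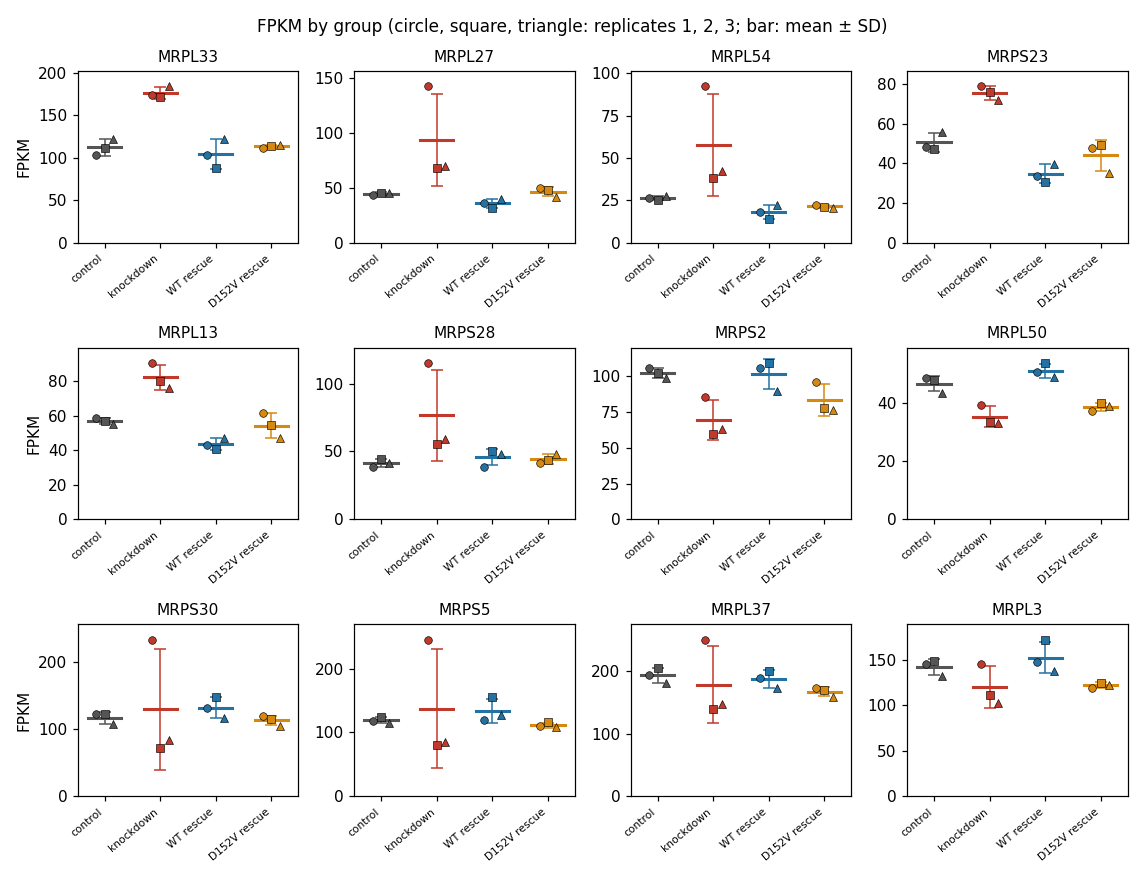
Points are the FPKM of each library and bars the mean ± SD of 3, for 6 members that rose over 12 and over 11 libraries (top row and the first 2 of the middle row) and 6 that fell over 11. For MRPS30 and MRPS5 the circle of MYB_KnockDown replicate 1 (233 and 245) lies above the control and the other knockdown libraries below it.

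The 2 members that fell over 12 libraries were MRPS2 and MRPL50. MRPS2, the homolog of uS2 (ENSG00000122140, GRCh38 chromosome 9, 135499965 to 135504673), had control values of 106, 102 and 98.5 FPKM and knockdown values of 85.5, 59.8 and 63.0, with no overlap. The log2 difference was -0.57 (SE 0.15, adjusted p = 0.0379) over 12 libraries and -0.72 (SE 0.11) over 11, and it was called in 14 of 26 settings. MRPS2 stood at 106, 109 and 89.4 with wild-type MYB and 96.1, 77.6 and 76.0 with D152V. MRPL50, found only in mitochondria (ENSG00000136897, GRCh38 chromosome 9, 101387633 to 101398618), had 48.8, 47.9 and 43.7 in the control and 39.5, 33.4 and 33.3 in the knockdown libraries. Its log2 difference was -0.39 (SE 0.10, adjusted p = 0.0365) over 12 libraries and -0.47 (SE 0.08) over 11.

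The other 7 falls were called only over 11 libraries among those 2 fits. MRPS30, which sits in the large subunit (ENSG00000112996, GRCh38 chromosome 5, 44808947 to 44815514), had 122, 123 and 107 FPKM in the control and 233, 72.5 and 83.2 in the knockdown libraries. MRPS5, the uS5 homolog (ENSG00000144029, GRCh38 chromosome 2, 95085369 to 95122003), had 118, 124 and 115 and 245, 80.9 and 85.8. In both, replicate 1 lay above every control and replicates 2 and 3 below, so that the log2 difference was -0.06 and 0.00 over 12 libraries and -0.59 (SE 0.11) and -0.51 (SE 0.10) over 11. MRPL37 (194, 205 and 181 in the control, 250, 139 and 147 after knockdown) and MRPL3, the uL3 homolog (146, 149 and 132 and 146, 111 and 103), gave -0.43 and -0.41 over 11. MRPL19 (-0.46), the bL19 homolog, MRPL57 (-0.39) and MRPL42 (-0.28) made up the rest. Of the 9 falls over 11 libraries, 7 were in the large subunit and 2 in the small.

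Members of the stalk and the decoding site did not pass the test. MRPL12, the factor-binding stalk protein, stood at 47.3, 47.1 and 43.2 in the control and 242, 56.2 and 52.7 in the knockdown libraries (log2 difference 0.95, SE 0.44, adjusted p = 0.163). MRPL10, which anchors the stalk, moved the other way in replicate 1, with 108, 115 and 114 and 47.6, 109 and 115 FPKM (-0.41, SE 0.29). Replicates 2 and 3 of MRPL10 lay within or just above the control range, and those of MRPL12 above it. MRPL11, at the base of the stalk, gave 58.9, 65.1 and 64.0 and 233, 68.0 and 69.8 (0.72, SE 0.38). MRPS12, the uS12 homolog at the decoding site, gave 56.0, 65.0 and 66.0 and 190, 78.8 and 69.8 (0.70, SE 0.30). For MRPL12, MRPL11 and MRPS12 the groups did not overlap, but none passed the test over 12 or 11 libraries.

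The peptidyl-tRNA hydrolase MRPL58 (log2 difference 0.26, SE 0.25), MRPL44 with its ribonuclease III fold (0.43, SE 0.24) and MRPL36, the bL36 homolog (0.64, SE 0.28), did not pass the test either. Of the small subunit proteins found only in mitochondria, MRPS22 (0.40, SE 0.18), MRPS27 (-0.24, SE 0.13) and MRPS34 (0.16, SE 0.30) did not pass. MRPL41 gave the largest value among these members (1.05, SE 0.41), from 10.5, 12.3 and 11.6 to 61.6, 16.9 and 14.3 FPKM. The 3 paralogs of bacterial bS18 differed in level and not in call. MRPS18C, which takes the place of bS18, stood at 59.2, 62.2 and 55.4 and 160, 61.2 and 69.7 FPKM, MRPS18B at 98.6, 97.7 and 103 and 147, 102 and 122, and MRPS18A, a large subunit protein, at 77.8, 88.0 and 83.0 and 129, 82.5 and 75.5. Their log2 differences were 0.57, 0.29 and 0.16.

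The knockdown difference was higher in members with shorter transcripts. Over the 78 genes the log2 difference and the log2 length had a Pearson r of -0.53 over 12 libraries and -0.39 over 11, where all 13098 tested genes with a length gave -0.36 and -0.21. These correlations are across genes, which share libraries and are not independent. Over 11 libraries, of the 26 shortest members (496 to 999 bases) 10 rose and 0 fell, with a median of 0.25. Of the 26 longest (1605 to 15557 bases) 2 rose, MRPS23 and MRPS33, and 7 fell, with a median of 0.06. Tested genes of the same lengths had medians of 0.13 and -0.08. The share of those genes that was called was not computed, so the counts have no background of the same length. The members that rose had a median length of 883 bases and those that fell 2233. With a length trend over all genes removed from each library, 5 members rose and 2 fell over 12 libraries, and 10 and 8 over 11.

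**Figure D3:**
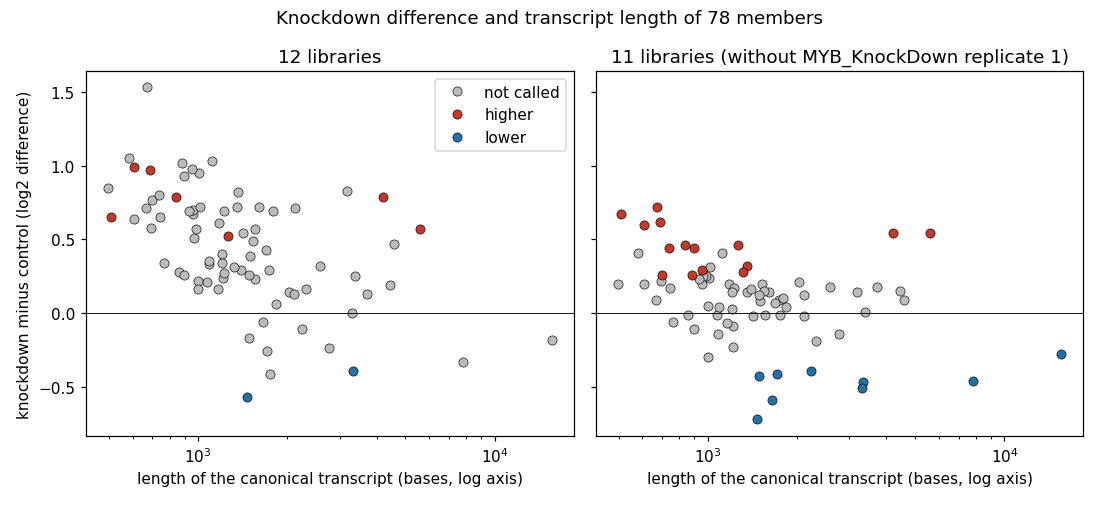
Each point is a member, at the length of its canonical transcript in bases on a log axis and its fitted log2 difference between knockdown and control, over 12 libraries (left) and 11 (right), with called members in color. Rises lie mostly among short transcripts and falls among transcripts of 1458 bases or more.

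With wild-type MYB restored, most of the members that passed the test were lower than in the knockdown libraries. Most members did not pass over 12 libraries, and most passed over 11. Over 12 libraries 3 were higher and 29 lower, against 20.6% and 16.9% of all tested genes (3.8% and 37.2% of members). Over 11 libraries 10 were higher and 37 lower, against 25.3% and 19.9% (12.8% and 47.4%). The median log2 difference was -0.61 over 12 libraries and -0.24 over 11. The fit on the 6 libraries compared called 8 lower. Of the 29 lower genes 18 encode large and 10 small subunit proteins, and MRPS36 is the other. Since these libraries are compared with the same knockdown libraries as above, the opposite direction is partly built in, and the rescue values are given beside those of the control. Without any 1 control library the lower count was 23, and without MYB-WT_Rescue replicate 1 or 2 it was 16 and 15.

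Among the called genes, the largest fall was that of MRPL23 (log2 difference -2.24, SE 0.53), at 1.38, 1.35 and 2.38 FPKM with wild-type MYB. MRPL54 (-1.53, SE 0.27), MRPL41 (-1.52, SE 0.41), MRPL46 (-1.36, SE 0.22) and MRPL27 (-1.29, SE 0.23) followed. MRPS23, at 33.8, 30.8 and 39.9 FPKM, was lower by a margin that every setting called (-1.10, SE 0.15, adjusted p = 4.10e-04, and 1.30e-04 to 0.0122 over 26 settings). So was MRPL13, at 43.1, 40.6 and 47.2 (-0.90, SE 0.12, adjusted p = 4.22e-04, and 1.36e-04 to 0.0181). For both, all 3 values lay below every control library as well. MRPL52 (-1.22), MRPL53 (-1.16), MRPL51 (-1.16), all found only in mitochondria, MRPL55 (-1.15), MRPS12 (-1.13) and MRPS17, the uS17 homolog (-1.04), completed the 12 largest among the called genes.

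The 3 genes that were higher were MRPL19 (0.59, SE 0.15), MRPS2 (0.55, SE 0.15) and MRPL50 (0.52, SE 0.10). MRPL50 stood at 50.9, 53.8 and 48.9 FPKM with wild-type MYB, above every control value. Over 11 libraries MRPS30 (0.75), MRPS5 (0.67), MRPL3 (0.51), MRPL37 (0.39), MRPL42 (0.35), MRPS9, the uS9 homolog (0.33) and MRPL4, the uL4 homolog (0.31), were higher as well. MRPS30 stood at 131, 148 and 117 FPKM, MRPS5 at 120, 155 and 127 and MRPL3 at 148, 172 and 138, against 72.5 to 111 for all 3 genes in knockdown replicates 2 and 3.

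With D152V, the members that passed the test over 12 libraries were all lower than in the knockdown libraries, and most members did not pass. Over 12 libraries 0 were higher and 21 lower by limma, against 13% and 12% of all tested genes, and at an unadjusted p under 0.05 the count was 0 higher and 38 lower. Over 11 libraries 3 were higher and 35 lower, against 16.6% and 15.9%. The median log2 difference was -0.50 over 12 libraries and -0.22 over 11. The fit on the 6 libraries compared called 0 lower. Without D152V_Rescue replicate 1, 2 or 3 the lower count was 11, 10 and 9, and without any 1 control library 15. MRPL23 (-1.87, SE 0.53), MRPL41 (-1.59, SE 0.41), MRPL24 (-1.41, SE 0.46) and MRPS26 (-1.34, SE 0.28) led the called falls. MRPL24 stood at 51.0, 47.6 and 54.4 FPKM against 64.4, 67.9 and 69.4 in the control and 393, 78.4 and 83.6 in the knockdown libraries. MRPL55 (-1.33), MRPL54 (-1.28), MRPL20 (-1.04), MRPL51 (-0.96), MRPL27 (-0.91), MRPL45 (-0.84), MRPS33 (-0.83) and MRPL28, the bL28 homolog (-0.78), completed the 12 largest among the called genes, and some members that did not pass had larger differences. The 3 that were higher over 11 libraries were MRPS30 (0.53), MRPS2 (0.43) and MRPS5 (0.41), at 119, 115 and 105, 96.1, 77.6 and 76.0 and 110, 116 and 108 FPKM.

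The 2 rescues differed from each other in 4 members. Over 12 libraries 1 was higher and 3 lower with D152V than with wild-type MYB, against 5.96% and 6.19% of all tested genes (1.3% and 3.8% of members). Over 11 libraries, where the smaller spread of the pooled fit enters although no library of this comparison changes, 9 were higher and 11 lower, against 13.6% and 17.8%. The median log2 difference was -0.03 in both. Quantile normalization gave 4 higher and 3 lower over 12 libraries, and over 11 it gave 18 and 8, with 13 and 8 under median-ratio scaling. Without MYB-WT_Rescue replicate 1, 2 or 3, or D152V_Rescue replicate 1, 2 or 3, the lower count was 1 in each case. With the replicate numbers as a block, over 11 libraries, it was 15 higher and 12 lower.

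MRPL46, a large subunit protein found only in mitochondria (ENSG00000259494, GRCh38 chromosome 15, 88459478 to 88467388), was the 1 gene called higher with D152V than with wild-type MYB over 12 libraries. It stood at 24.6, 24.4 and 24.5 FPKM in the control, 57.5, 31.6 and 27.3 in the knockdown, 13.4, 12.5 and 15.5 with wild-type MYB and 26.0, 28.7 and 28.9 with D152V. The 3 wild-type values lay below all others, while the D152V values lay just above the control. The log2 difference between D152V and wild type was 0.96 (SE 0.22, adjusted p = 0.0132), called in 23 of 26 settings. MRPS11, the uS11 homolog of the small subunit (ENSG00000181991, GRCh38 chromosome 15, 88467708 to 88480776), starts 320 bases away on the opposite strand, so the 2 genes run apart from a shared stretch. MRPS11 stood at 25.5, 30.4 and 31.6 FPKM in the control, 48.8, 25.5 and 33.7 in the knockdown, 17.9, 16.9 and 20.8 with wild-type MYB and 27.4, 26.8 and 26.5 with D152V. All 3 wild-type values lay below all others here too. Its difference between the rescues, 0.52 (SE 0.19), was not called over 12 libraries and was called over 11. Most of the stretch between the start sites is in the 250 bases before MRPL46, given on its strand (chr15:88467389-88467638, minus strand) because both genes were low in the same libraries:
MRPL46: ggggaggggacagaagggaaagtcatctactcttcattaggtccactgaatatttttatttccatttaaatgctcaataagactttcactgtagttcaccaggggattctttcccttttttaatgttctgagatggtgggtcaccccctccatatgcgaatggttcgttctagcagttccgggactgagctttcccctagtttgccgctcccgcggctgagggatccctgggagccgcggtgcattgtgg
None of the 6 motifs lay in these 250 bases. The searched window of MRPL46 also takes in bases after its start site. Over that whole window there was 1 match to the MYB form TAACNG and 1 to the YY1 core. The window of MRPS11 held no match to any of the 6 motifs. The next genes along the chromosome gave 3.75 to 6.08 FPKM in the control and 3.15 to 4.01 with wild-type MYB for DET1, a ubiquitin ligase component, and 21.2 to 22.9 and 14.1 to 17.6 for AEN, a nuclease, and were chosen for naming after their values were seen. AEN was lower with wild-type MYB than in the control over 11 libraries (log2 difference -0.43, SE 0.10) and was not called over 12.

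MRPL45, which holds the ribosome at the inner membrane (ENSG00000278845, GRCh38 chromosome 17, 38297168 to 38323211), was 1 of the 3 genes called lower with D152V than with wild-type MYB. It stood at 61.5, 62.9 and 61.6 FPKM in the control, 103, 59.1 and 63.8 in the knockdown, 60.5, 65.9 and 69.7 with wild-type MYB and 40.1, 41.6 and 39.5 with D152V. The D152V values lay close together and below every other library. The log2 difference between D152V and wild type was -0.68 (SE 0.17, adjusted p = 0.0247), called in 20 of 26 settings. MRPL19 (ENSG00000115364, GRCh38 chromosome 2, 75646783 to 75662206) differed the most of the 3 (-0.73, SE 0.15, adjusted p = 0.00725), and in every setting, with 3.21e-04 to 0.0403 over the 26. It stood at 50.0, 51.8 and 43.5 FPKM in the control, 46.3, 32.3 and 37.4 in the knockdown, 55.7, 66.4 and 53.2 with wild-type MYB and 34.0, 38.0 and 32.5 with D152V. D152V values thus overlapped knockdown values, while all wild-type values lay above all control values. The gene GCFC2 lies beside MRPL19 (75662705 to 75713122). It stood at 13, 12 and 11.3 FPKM in the control and 31, 10.9 and 11.4 in the knockdown. With wild-type MYB it stood at 18.7, 23.6 and 20.8, and with D152V at 11.5, 11.7 and 13.9. Its difference between the rescues, -0.72 (SE 0.30 over 12 libraries and 0.10 over 11), was called over 11 only. A cause shared by both genes was not tested. MRPL50 was lower with D152V as well (-0.39, SE 0.10), at 37.3, 40.1 and 38.9 FPKM, below every control and overlapping the knockdown values.

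**Figure D4:**
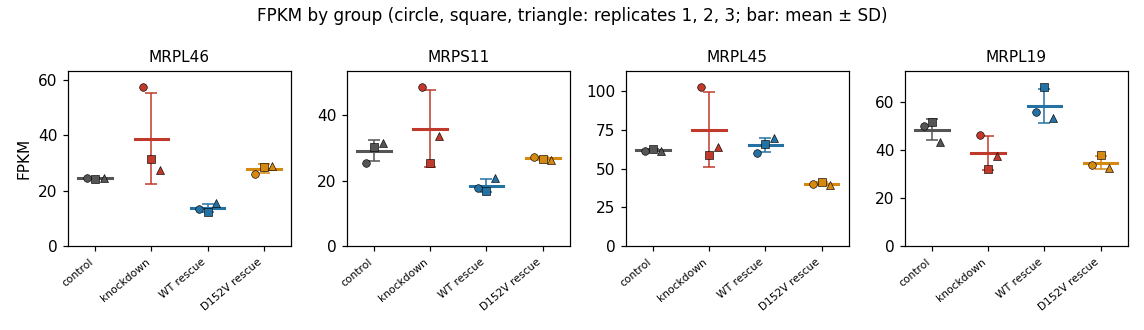
Points are the FPKM of each library and bars the mean ± SD of 3 for MRPL46, MRPS11, MRPL45 and MRPL19. MRPL46 and MRPS11 are lowest with wild-type MYB, MRPL45 is lowest with D152V (39.5 to 41.6), and MRPL19 is highest with wild-type MYB.

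Against the control, few members in the rescues passed the test over 12 libraries, and their shares were below those of all tested genes. With wild-type MYB, over 12 libraries, 0 were higher and 2 lower by limma, against 5.04% and 4.58% of all tested genes, and at an unadjusted p under 0.05 the count was 0 and 9. The 2 were MRPL46 (-0.79, SE 0.22, adjusted p = 0.0420) and MRPS23 (-0.53, SE 0.15, adjusted p = 0.0461). Over 11 libraries 1 was higher, MRPS9, and 23 lower, against 13.8% and 15.9% (1.3% and 29.5% of members). MRPS9 stood at 49.3, 52.0 and 52.9 FPKM in the control and 62.0, 65.3 and 63.6 with wild-type MYB, with no overlap. With D152V, over 12 libraries, 0 were higher and 1 lower, MRPL45 (-0.61, SE 0.17, adjusted p = 0.0497), against 4.61% and 4.94%, and at an unadjusted p under 0.05 the count was 0 and 7. Over 11 libraries 0 were higher and 16 lower, against 11.2% and 16.4% (0.0% and 20.5% of members), and 1 was higher at an unadjusted p under 0.05. There, median-ratio scaling gave 2 higher and 11 lower and quantile normalization 4 and 8. The median log2 difference was -0.10 in both comparisons, against -0.02 and -0.04 for all tested genes. It became -0.03 for wild-type MYB with the length trend removed, and -0.06, -0.02 and -0.05 for D152V with median-ratio scaling, quantile normalization and the length trend removed. Without any 1 control library, limma called 0 members in either comparison.

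MRPS26, which is found only in mitochondria, was low in the D152V rescue, at 4.69, 4.91 and 5.68 FPKM against 9.19, 7.73 and 8.22 in the control and 6.03, 8.21 and 7.91 with wild-type MYB. Its D152V values lay below all others, and its difference from the control was called over 11 libraries (-0.62, SE 0.13) and not over 12. MRPS18B was below every control library in both rescues, at 67.5, 60.7 and 84.1 and 65.7, 71.8 and 86.0 FPKM. MRPS27, which binds RNA of the small subunit, stood at 93.0, 86.9 and 95.9 in the control, 70.1, 67.0 and 88.5 with wild-type MYB and 70.3, 72.0 and 72.5 with D152V.

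**Figure D5:**
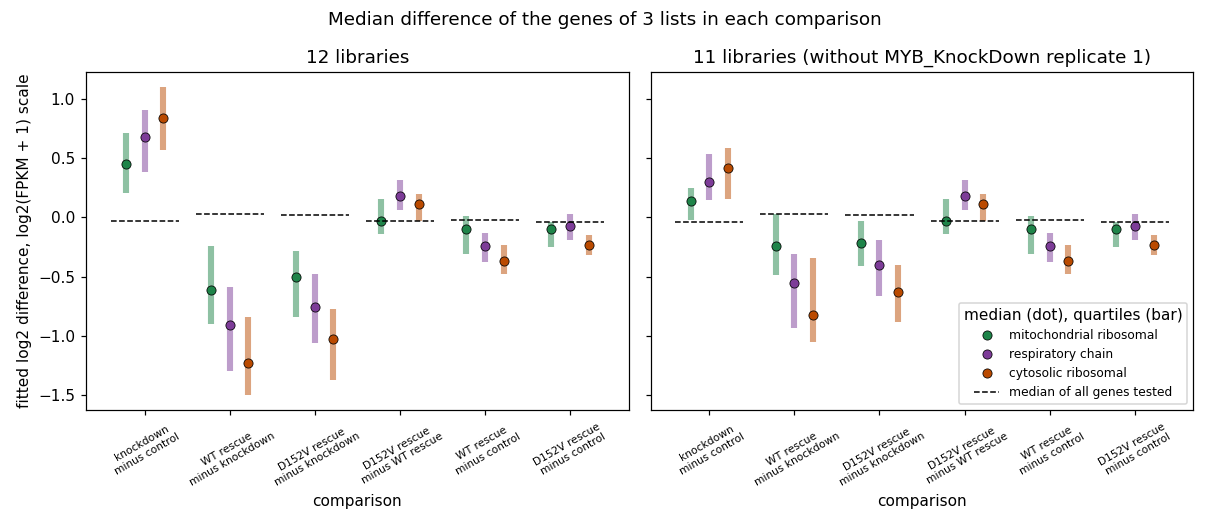
Dots are the median fitted log2 difference of 3 gene lists and bars their quartiles in the 6 comparisons, over 12 libraries (left) and 11 (right), with dashes at the median of all tested genes. In knockdown minus control the members' median (0.45 and 0.14) is below those of respiratory chain subunits (0.68 and 0.30) and cytosolic ribosomal proteins (0.84 and 0.42).

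Other parts of the same machinery were read against the shares of all tested genes given above for knockdown against control, 3.94% that rose and 7.38% that fell over 12 libraries and 7.26% and 12.9% over 11. Of 5 mitochondrial ribosome proteins without an MRP symbol, 0 were called by limma over 12 or 11 libraries. DAP3, a GTP-binding protein of the small subunit, stood at 235 to 252 FPKM in the control and at 242, 195 and 208 after knockdown. Of 24 genes for assembly of the mitochondrial ribosome and modification of its RNA, 1 rose and 0 fell over 12 libraries, and 2 rose and 1 fell over 11. The rise over 12 was MRM3, an rRNA methyltransferase (0.50, SE 0.14). Of 16 mitochondrial translation factors 0 rose and 2 fell over 12 libraries, and 1 rose and 4 fell over 11. The 2 were GFM1, the elongation factor that moves the ribosome along (-0.50, SE 0.11), and MTRFR, a rescue factor of stalled ribosomes (-0.51, SE 0.14). GFM1 stood at 62.4 to 72.4 FPKM in the control, at 49.2, 44.1 and 46.6 after knockdown and at 62.6 to 74.4 with wild-type MYB.

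Calls in 2 larger sets of genes, for the cytosolic ribosome and the respiratory chain, were nearly all in 1 direction. Of all tested genes, 3.94% rose over 12 libraries and 7.26% over 11. Of 79 cytosolic ribosomal protein genes 27 rose and 0 fell over 12 libraries, and 49 and 0 over 11. Of 79 nuclear genes of respiratory chain subunits 21 rose and 1 fell over 12, and 40 and 2 over 11. Whether the lists differ from the members was not tested. Of 10 regulators of nuclear mitochondrial genes tested, 0 rose and 3 fell over 12 libraries, where 7.38% of all tested genes fell. Over 11 libraries 1 rose and 3 fell, against 7.26% and 12.9% of all tested genes. The 3 that fell over 12 libraries were MYC, which promotes ribosome production (-1.10, SE 0.18), its partner MAX (-0.48, SE 0.13) and the coactivator gene PPRC1 (-0.52, SE 0.13). YY1, whose core letters many members carry, stood at 24.2 to 27.0 FPKM in the control, at 24.1, 28.0 and 27.2 after knockdown and at 25.1 to 30.5 in the rescues.

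Several members have pseudogenes, and the sources used here do not say how reads shared with them were assigned. The table had 79 pseudogene rows for 36 of the 78 members, of which 68 were at 0 in every library and 2, both copies of MRPS31, passed the expression minimum. MRPS31P4 had a mean of 3.04 and MRPS31P5 of 1.78 FPKM, against 14.1 for MRPS31. The values of MRPS31 and of other members with pseudogenes are uncertain for this reason, and by how much was not tested.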

How the data were processed

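RNA of 12 K-562 libraries, 3 in each of 4 groups, was sequenced from poly(A) stranded libraries, per the labels' protocols. FPKM values per gene were made by the authors and deposited as 1 table, and the submitters' processing notes name bcl2fastq 2.17.1.14, Trimmomatic 0.33, TopHat2 2.0.13, Cufflinks 2.2.1 and GRCh38. The sources used here give neither the annotation nor the use of strand in counting, and the depth is unknown because the table holds no counts.

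Groups were taken from the sample labels. The 13393 genes for which 3 or more libraries had an FPKM of 1 or higher were fitted with limma 3.58.1 in R 4.3.3 on log2(FPKM + 1), with a mean per group, all 12 libraries and 8 residual degrees of freedom. A log2 difference is on that scale, which understates changes of genes with low FPKM. Benjamini-Hochberg adjustment ran over all tested genes, and genes under 0.05 were called. Scripts were tested on simulated data. Alternatives changed scaling, pseudocount, filter, libraries, a replicate block and a length trend, and 26 settings were run per result. The 5 that combine the absence of MYB_KnockDown replicate 1 with another change were chosen after seeing the data.

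Named genes were MYB, the called members (at most 12 in each direction of each main comparison), the 4 highest and 4 lowest by mean FPKM, members with a known place in the ribosome, and up to 4 called genes of each other list. The members and the gene lists were chosen with earlier results of these data known. Other genes with values were named after their values were seen. Coordinates and promoter sequences are those of RefSeq on GRCh38.p14, matched by symbol, with coordinates for 77 of 78 members. Deviations of same-numbered libraries from their group means were positively correlated in every pair between the 2 rescues (r = 0.169, 0.153 and 0.233). They were so, mostly more weakly, between control and knockdown (0.038, 0.132 and 0.090) and control and wild-type rescue (0.024, 0.051 and 0.349). The same held between knockdown and wild-type rescue (0.005, 0.030 and 0.132). Signs were mixed between D152V rescue and control (0.159, -0.042 and 0.177) or knockdown (-0.013, 0.082 and 0.110). The labels do not state a pairing, so the main fit used none and the replicate block was an alternative.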

Additional observations from a re-analysis of the deposited data

How the results depend on the processing

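Counts are given as higher and lower members. For knockdown against control (7 and 2 with all 12 libraries), quantile normalization gave 11 and 5, no filter on low values 2 and 1, the 6 libraries alone 0 and 0, and median-ratio scaling 8 and 0. For wild-type rescue against knockdown (3 and 29), quantile normalization gave 6 higher, no filter 18 lower, removal of the length trend 19 lower, and the 6 libraries alone 0 and 8. For D152V against knockdown (0 and 21), quantile normalization gave 2 higher, removal of the length trend 1 higher, and the 6 libraries alone 0 lower. For D152V against wild type (1 and 3), quantile normalization gave 4 higher with a median of 0.04, and the 6 libraries alone 5 and 8. For wild type against control (0 and 2), lower counts were 1 with median-ratio scaling or a mean FPKM of at least 5, 4 with quantile normalization, 0 without a filter or with the replicate block, and 21 with the 6 libraries alone, which gave 1 higher, and the median was -0.03 with the length trend removed. For D152V against control (0 and 1), lower counts were 0 with median-ratio scaling, a mean FPKM of at least 5, the replicate block, no filter, or 0.1 as pseudocount, 2 with quantile normalization and 16 with the 6 libraries alone, and the median was -0.06, -0.02 and -0.05 with median-ratio scaling, quantile normalization and the length trend removed. The 6 libraries alone leave fewer residual degrees of freedom, and the cause of the other changes was not tested.

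With 1 library left out, knockdown against control gave 0 to 17 higher and 0 to 9 lower with medians of 0.14 to 0.59. Wild type against knockdown gave 2 to 10 and 15 to 46 (-0.76 to -0.24), and D152V against knockdown 0 to 3 and 9 to 41 (-0.70 to -0.22). D152V against wild type gave 0 to 9 and 1 to 11 (-0.06 to 0.04), wild type against control 0 to 1 and 0 to 23 (-0.13 to -0.05), and D152V against control 0 and 0 to 16 (-0.12 to -0.09). With the replicate block and 12 libraries the first 4 comparisons gave 6 and 2, 3 and 27, 0 and 21, and 1 and 3.

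Without MYB_KnockDown replicate 1, a further change was made in settings chosen after seeing the data. In the order median-ratio scaling, quantile normalization, length trend removed, pseudocount 0.1 and replicate block, knockdown against control gave 21 and 8, 19 and 9, 10 and 8, 14 and 9, and 19 and 10. Wild type against knockdown gave 9 and 43, 9 and 41, 11 and 25, 10 and 37, and 10 and 40, with a median of -0.10 without the length trend. D152V against knockdown gave 3 and 36, 4 and 33, 6 and 21, 3 and 35, and 7 and 35. D152V against wild type gave 13 and 8, 18 and 8 (median 0.04), 7 and 10, 9 and 11, and 15 and 12. Wild type against control gave 1 and 21, 1 and 20, 1 and 13 (median -0.02), 1 and 23, and 1 and 25. D152V against control gave 2 and 11, 4 and 8, 1 and 12, 0 and 16, and 2 and 23, with medians of -0.05, -0.02 and -0.05 in the first 3.

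Some single genes reversed direction. In wild type against knockdown, MRPL4 ran from -0.44 to 0.31 with 1 library left out, and was at 0.17 with the length trend removed. In the 5 settings above, in the same order, it was at 0.26, 0.27, 0.47, 0.31 and 0.28. MRPS9 ran from -0.53 to 0.33, with 0.08 and then 0.28, 0.27, 0.46, 0.33 and 0.35. MRPS30 ran from -0.08 to 0.75, MRPS5 from -0.12 to 0.67 and MRPL37 from -0.03 to 0.39, and MRPL42 was at -0.23 with the length trend removed. In D152V against knockdown, MRPS30 ran from -0.30 to 0.53. MRPS5 ran from -0.38 to 0.41 there, with 0.19 under quantile normalization and 0.40, 0.45, 0.38, 0.42 and 0.44 in the 5 settings. In knockdown against control, MRPS30 ran from -0.59 to 0.25 and MRPL57 from -0.39 to 0.04, and MRPL42 was at 0.15 with the length trend removed. MRPS5 ran from -0.51 to 0.28 there, with -0.19 under quantile normalization and -0.45, -0.45, -0.43, -0.51 and -0.54 in the 5 settings.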
